A study of Mus musculus with 8 samples.

Results

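The genes described here are 6 genes of red blood cells, the alpha-globin genes Hba-a1 and Hba-a2, the beta-globin genes Hbb-bs and Hbb-bt, the haem synthesis gene Alas2 and the membrane gene Slc4a1. They were taken by symbol from 56465 measured features, and each symbol had 1 row. The 8 libraries are retinas from WT mice (replicates 3, 4, 5 and 7) and from TG mice (replicates 2, 5, 6 and 8), which make human transferrin, a plasma protein that carries iron. All mice carry the strain label C57Bl/6J, and every retina was detached with 10 µl of sodium hyaluronate injected under it and taken 4 days later, so the series holds no attached retina. The labels do not name the transgene's promoter, the cells that make the protein or the age of the mice. WT had 3 males and TG had 2. Whether every retina is from another animal is not stated, so a p-value measures the spread between these libraries only.

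Haemoglobin carries oxygen and is built from alpha-globin and beta-globin chains, each holding a haem group with iron at its centre. Alas2 is the red cell form of the enzyme that begins haem synthesis, and Slc4a1 encodes band 3, the anion exchanger of the red cell membrane. In mammals the circulating red cell has no nucleus but young red cells still hold globin RNA, so globin reads in a solid tissue are commonly read as a measure of the blood left in it. Mice with the C57Bl/6J background carry the beta-globin haplotype whose adult genes are Hbb-bs and Hbb-bt. In a bulk sample, fewer red cells and less globin RNA per red cell cannot be told apart.

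Libraries held 61535690 to 75866423 counted reads. The rod genes matched the retina label, with 460385 to 785561 normalized reads of Sag, the arrestin gene of photoreceptors. Values are normalized reads, that is, read counts that the authors scaled by library with DESeq2. Library WT 4 stood apart from the other 7 in the globin genes, and results are therefore given with and without it. With all 8 libraries, limma called 2 of 19798 features (0.0101%) between TG and WT at an adjusted p under 0.05.

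The globin genes occur as near-identical copies, which bears on every value given per copy. The coding sequences of Hba-a1 and Hba-a2 are 426 bases long and differ at 1 base, and those of Hbb-bs and Hbb-bt are 441 bases long and also differ at 1 base (GENCODE M21, GRCm38). The stretches of 50 coding bases around those differences are shown because reads over them, or over parts outside the coding sequence, tell the copies apart. Capitals mark the base that differs within each pair, and the stretches end at coding base 405 for the alpha genes and 441 for the beta genes.
Hba-a1: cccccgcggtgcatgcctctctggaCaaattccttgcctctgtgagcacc
Hba-a2: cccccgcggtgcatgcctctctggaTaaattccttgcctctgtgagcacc
Hbb-bs: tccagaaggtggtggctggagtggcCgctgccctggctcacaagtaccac
Hbb-bt: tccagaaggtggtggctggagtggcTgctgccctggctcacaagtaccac
Of the runs of 50 bases in the Hba-a1 transcript, 67.5% also occur in Hba-a2, and 86.9% of those of Hba-a2 occur in Hba-a1. GENCODE starts Hba-a1 at 32283511, before its measured row at 32283671, so these shares hold for that form. For Hbb-bs and Hbb-bt the shares were 65.8% and 58.3%. Hba-a1 and Hbb-bs shared no run of that length, and their coding sequences were 56.19% identical. The sum over the 2 alpha copies, or over the 2 beta copies, is thus less exposed to how reads were divided than each copy is.

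The 250 bases before the RefSeq start of 4 of the genes are shown as background. Any link between these promoters and the levels in the libraries was not tested. Capitals mark every match, on either strand, to 4 short motifs that are classically described in globin promoters. The first, GATAA, is the core that GATA factors such as Gata1 bind. The second, CACCC, is bound by Klf1. The others are the CCAAT box and the TATA box, searched as TATAA. Neighbouring or overlapping matches run together.
Hba-a1, chr11:32283422-32283671, plus strand: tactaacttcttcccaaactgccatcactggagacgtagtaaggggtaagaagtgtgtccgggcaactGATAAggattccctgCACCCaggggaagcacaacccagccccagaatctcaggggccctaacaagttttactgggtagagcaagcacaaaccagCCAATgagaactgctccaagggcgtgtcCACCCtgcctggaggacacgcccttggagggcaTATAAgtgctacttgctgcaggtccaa
Hbb-bs, chr7:103827929-103828178, minus strand: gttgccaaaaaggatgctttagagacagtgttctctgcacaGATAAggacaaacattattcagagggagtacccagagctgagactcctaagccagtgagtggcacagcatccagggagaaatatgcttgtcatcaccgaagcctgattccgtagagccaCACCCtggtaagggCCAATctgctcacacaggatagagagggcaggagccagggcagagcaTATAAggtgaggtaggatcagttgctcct
Hbb-bt, chr7:103813924-103814173, minus strand: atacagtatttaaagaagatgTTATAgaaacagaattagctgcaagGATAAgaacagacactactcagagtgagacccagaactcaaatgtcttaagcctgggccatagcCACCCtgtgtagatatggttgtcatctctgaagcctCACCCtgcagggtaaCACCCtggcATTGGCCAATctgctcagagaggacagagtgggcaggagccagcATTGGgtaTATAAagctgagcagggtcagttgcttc
Alas2, chrX:150547167-150547416, plus strand: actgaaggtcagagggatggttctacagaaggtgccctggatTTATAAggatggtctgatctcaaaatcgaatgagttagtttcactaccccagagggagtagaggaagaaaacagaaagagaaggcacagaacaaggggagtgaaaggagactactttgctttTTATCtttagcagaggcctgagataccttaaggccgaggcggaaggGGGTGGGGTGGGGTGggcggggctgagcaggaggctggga
The sequences are from RefSeq (GRCm38.p6), in which 5 of the 6 genes had an entry. For each printed gene the GENCODE start lies inside the window (32283511 for Hba-a1), so what counts as promoter depends on the annotation. Each of the 4 globin promoters held all 4 motifs, as did 0.968% of 32851 promoters of the same length. The first motif, GATAA, occurred in 22.6% of those promoters and CACCC in 52%. The CCAAT box occurred in 33.8% and TATAA in 22.8%. The Hba-a2 promoter, not printed, was 97.63% identical to that of Hba-a1, while those of Hbb-bs and Hbb-bt were 68.36% identical. In the Hba-a1 promoter TATAA began 27 bases and CCAAT 88 bases before the start, and in Hbb-bs 29 and 76 bases. Hbb-bt held 3 CACCC matches and 3 CCAAT matches. Alas2 had matches to 3 of the motifs and none to CCAAT in this window. A match is a run of letters, and binding was not measured.

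All 4 globin genes were abundant in every library but WT 4. Hbb-bs, the major adult beta-globin gene, is annotated on chromosome 7 from 103826523 to 103827988 (mm10). It had 22632 normalized reads in WT 3, 1532 in WT 4, 20487 in WT 5 and 20772 in WT 7, against 7878 in TG 2, 9186 in TG 5, 8000 in TG 6 and 14613 in TG 8. WT 3, WT 5 and WT 7 were above every TG library, and WT 4 was below all of them. The WT mean was 16356 ± 9928 and the TG mean 9919 ± 3184 (SD, n = 4 in both groups).

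Hbb-bt, the neighbouring beta-globin gene (chromosome 7, 103812524 to 103813926), had 2717, 157, 2584 and 3408 normalized reads in WT 3, 4, 5 and 7, and 884, 981, 925 and 2064 in TG 2, 5, 6 and 8. The order was that of Hbb-bs at the group level (3 WT libraries high, WT 4 lowest), and TG 8 lay apart from the other TG libraries. Its WT mean was 2216 ± 1420 and its TG mean 1213 ± 569 (SD, n = 4 in both groups).

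Hba-a1 encodes alpha-globin on chromosome 11 (32283671 to 32284489). It had 8592, 686, 8805 and 9962 normalized reads in the WT libraries, in the same order as above, and 4783, 3336, 3816 and 7003 in the TG libraries (7011 ± 4260 and 4735 ± 1628, SD, n = 4 each). Hba-a2, the second alpha-globin gene (chromosome 11, 32296488 to 32297309), had 4633, 251, 5249 and 4580 in WT and 2669, 1952, 1686 and 3260 in TG (3678 ± 2305 and 2392 ± 712). Both alpha genes had WT 4 lowest, then the TG libraries, then the other WT libraries, with TG 8 the highest of TG.

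**Figure D1:**
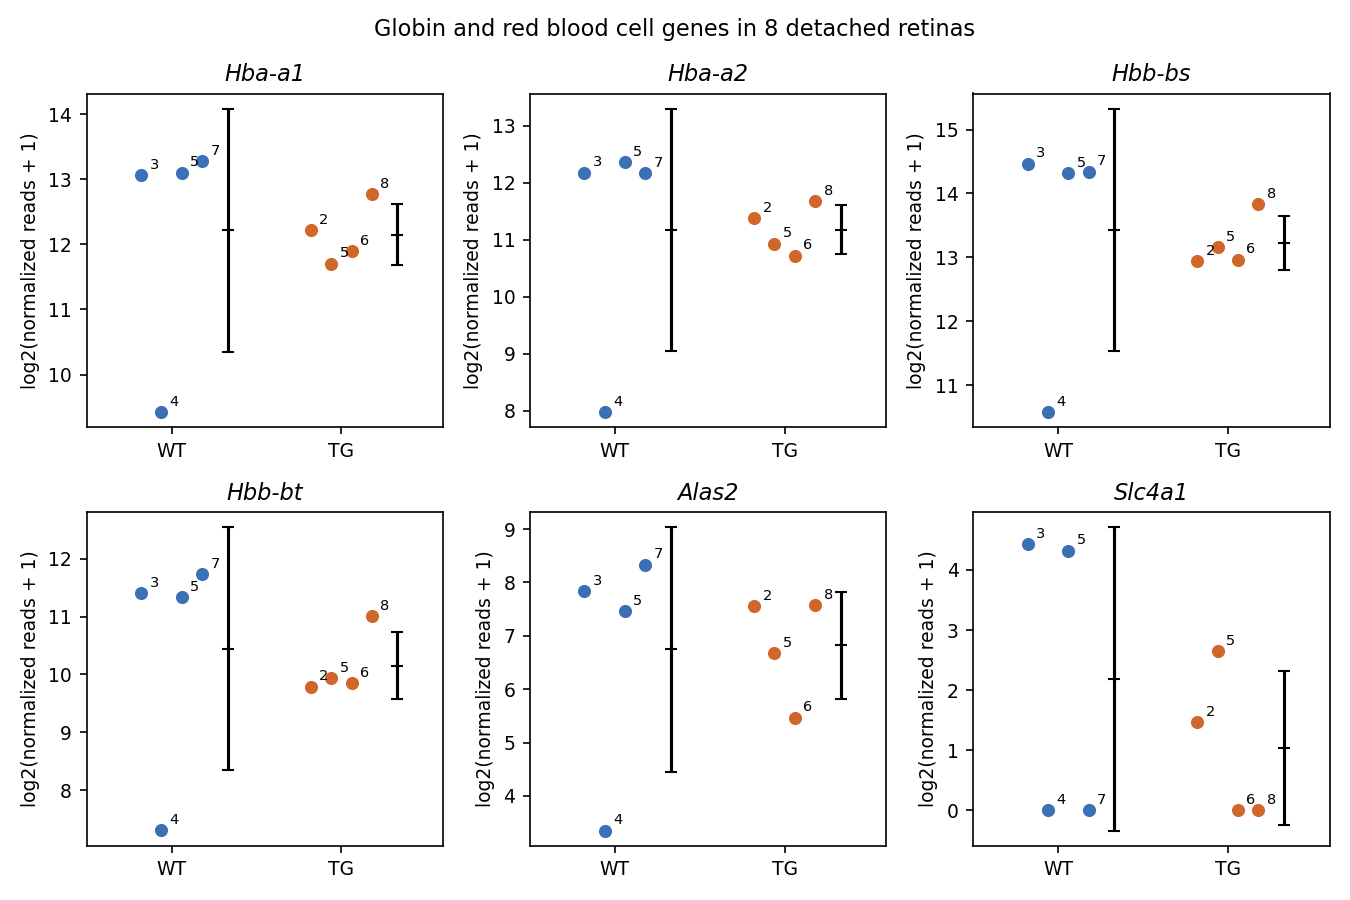
Levels of the 6 genes in each library, as log2(normalized reads + 1), in WT (blue) and TG (orange), with replicate numbers beside the points and the group mean ± 1 SD of the log2 values as a black bar. WT 4 is the lowest library for the 4 globin genes and Alas2, while the other 3 WT libraries lie above all 4 TG libraries for each globin gene.

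Alas2 (chromosome X, 150547417 to 150570622) was far less abundant than the globin genes. It had 227, 9.21, 175 and 322 normalized reads in WT 3, 4, 5 and 7, and 187, 101, 43.2 and 190 in TG 2, 5, 6 and 8. WT 4 was again the lowest, from 10 reads (exact 95% Poisson interval 4.80 to 18.4, counting error only), and TG 6 came next. The groups overlapped with or without WT 4, since TG 2 and TG 8 lay above WT 5. The Alas2 row overlaps the row of Apex2, which averaged 741 normalized reads, and an unnamed row that averaged 42.7. The labels do not say whether the counting used strand, so reads of these rows may not be separable.

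Slc4a1 (chromosome 11, 102348820 to 102365282) was at the edge of detection. It had 20 reads in WT 3 and 18 in WT 5 (20.5 and 19.0 normalized reads), 2 in TG 2 and 6 in TG 5 (1.77 and 5.28), and 0 in WT 4, WT 7, TG 6 and TG 8. A count of 0 allows up to 3 reads, or 2.76 normalized reads in WT 4 and 3.70 in TG 6. Its mean of 5.82 was under the minimum of 10 for testing, so 5 of the 6 genes were tested. WT 7, which had the highest sum of globin reads, had none of Slc4a1.

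Per kilobase of transcript, the mean level in WT was 26044 normalized reads for Hbb-bs, 10030 for Hba-a1, 6640 for Hba-a2, 3153 for Hbb-bt, 90.0 for Alas2 and 2.17 for Slc4a1. The order of these per-kilobase levels was the same in TG, from 15795 for Hbb-bs to 0.39 for Slc4a1. Levels of the near-identical copies rest on how reads were divided between them. Lengths were those of GENCODE transcripts, and that of Hba-a1 (699 bases) starts before its measured row, so its per-kilobase level depends on that choice.

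With all 8 libraries, the difference between TG and WT passed the test in none of the 5 tested genes. The log2 fold change, TG minus WT on the log2(normalized reads + 1) scale, was -0.20 ± 0.66 for Hbb-bs, -0.30 ± 0.75 for Hbb-bt, -0.07 ± 0.66 for Hba-a1, 0.01 ± 0.74 for Hba-a2 and 0.07 ± 0.89 for Alas2 (SE). The adjusted p-values from limma ran from 0.97 to 0.999 over those genes, and their groups overlapped, as they did for all but 2.53% of tested features. The 95% interval for Hbb-bs ran from -1.63 to 1.23, so a change of 2-fold in either direction lay within it. By edgeR's quasi-likelihood test on the recovered reads, none passed either, with log2 fold changes from -0.86 for Hbb-bt to -0.47 for Alas2 (adjusted p from 0.97 to 0.98).

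The spread within WT was wide. The SD of the log2 values in WT was 1.90 for Hbb-bs, 2.10 for Hbb-bt, 1.87 for Hba-a1, 2.13 for Hba-a2 and 2.29 for Alas2, against a median of 0.39 over all tested features. Between 94.0% and 96.9% of tested features had a lower SD in WT than these genes. In TG the SD was 0.42 for Hbb-bs, 0.58 for Hbb-bt, 0.47 for Hba-a1, 0.43 for Hba-a2 and 0.99 for Alas2, against a TG median of 0.40 over all tested features. Without WT 4 the SD in WT fell to 0.08 for Hbb-bs, 0.21 for Hbb-bt, 0.11 for Hba-a1, 0.11 for Hba-a2 and 0.44 for Alas2.

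The mean of the other 3 WT libraries was 13.9-fold that of WT 4 for Hbb-bs, 18.5-fold for Hbb-bt, 13.3-fold for Hba-a1, 19.2-fold for Hba-a2 and 26.2-fold for Alas2. WT 4 was also 4.69-fold to 6.71-fold below the lowest TG library for those genes. In 3 of the 5 genes (Hba-a1, Hba-a2 and Hbb-bs), the gap below the other WT libraries passed Dixon's 95% limit for 4 samples, which WT 4 did in 0.263% of tested features. Of 15075 features with a mean of at least 50, 15 were at least 4-fold lower in WT 4 than in any other library, and 5 of those were the globin genes and Alas2. For each of the other libraries, 4 to 62 features were that far below all the rest, so the number of such features in WT 4 was within the range of the other libraries.

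Leaving out WT 4 changed the comparison. The WT means without it were 21297 ± 1165 normalized reads for Hbb-bs, 2903 ± 442 for Hbb-bt, 9120 ± 737 for Hba-a1, 4821 ± 372 for Hba-a2 and 241 ± 74.2 for Alas2 (SD, n = 3). These were 2.15-fold, 2.39-fold, 1.93-fold, 2.02-fold and 1.85-fold the TG means. The 4 globin genes then had no overlap between groups and lay lower in TG, which held for 1.97% of tested features. WT 4 was left out for its low values of these genes, so a higher WT mean and smaller WT spread follow from that choice. For the other features WT 4 was not chosen on their own values, so that share is not a like-for-like measure. The 4 genes share reads within each pair of copies and are not 4 independent observations.

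In limma without WT 4, the log2 fold change was -1.15 ± 0.20 for Hbb-bs, -1.34 ± 0.27 for Hbb-bt, -1.002 ± 0.22 for Hba-a1, -1.06 ± 0.21 for Hba-a2 and -1.06 ± 0.49 for Alas2 (SE). All 4 globin genes had an unadjusted p under 0.05 and lay lower in TG, as did 1.19% of tested features. WT 4 was chosen on the globin values, so these p-values and the rank of Hbb-bs are not comparable with those of other features. Hbb-bs ranked 5 of 19733 features by p (unadjusted p = 9.4e-05, adjusted p = 0.37, limma), and none of the 5 genes passed after adjustment. The adjusted p was 0.66 for Hba-a2 and Hbb-bt, and 0.9997 for Hba-a1 and Alas2. Over all features without WT 4, limma called 1 feature, or 0.00507%.

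The tools differed on that reduced set of libraries. DESeq2 without WT 4 called Hbb-bs (log2 fold change -1.10 ± 0.22, adjusted p = 0.0020), Hba-a2 (-1.01 ± 0.23, adjusted p = 0.025) and Hbb-bt (-1.26 ± 0.29, adjusted p = 0.027) lower in TG. It called 6 of 19733 features lower, or 0.0304%. Hba-a1 (adjusted p = 0.086) and Alas2 were not called by DESeq2, and edgeR without WT 4 called none of the 5 (lowest adjusted p = 0.68, for Hbb-bs). WT 4 was left out because of its low globin values, so these calls rest on a choice made with the outcome in view. Leaving out any other library gave log2 fold changes between -0.58 and 0.60 for these genes, and no call.

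**Figure D2:**
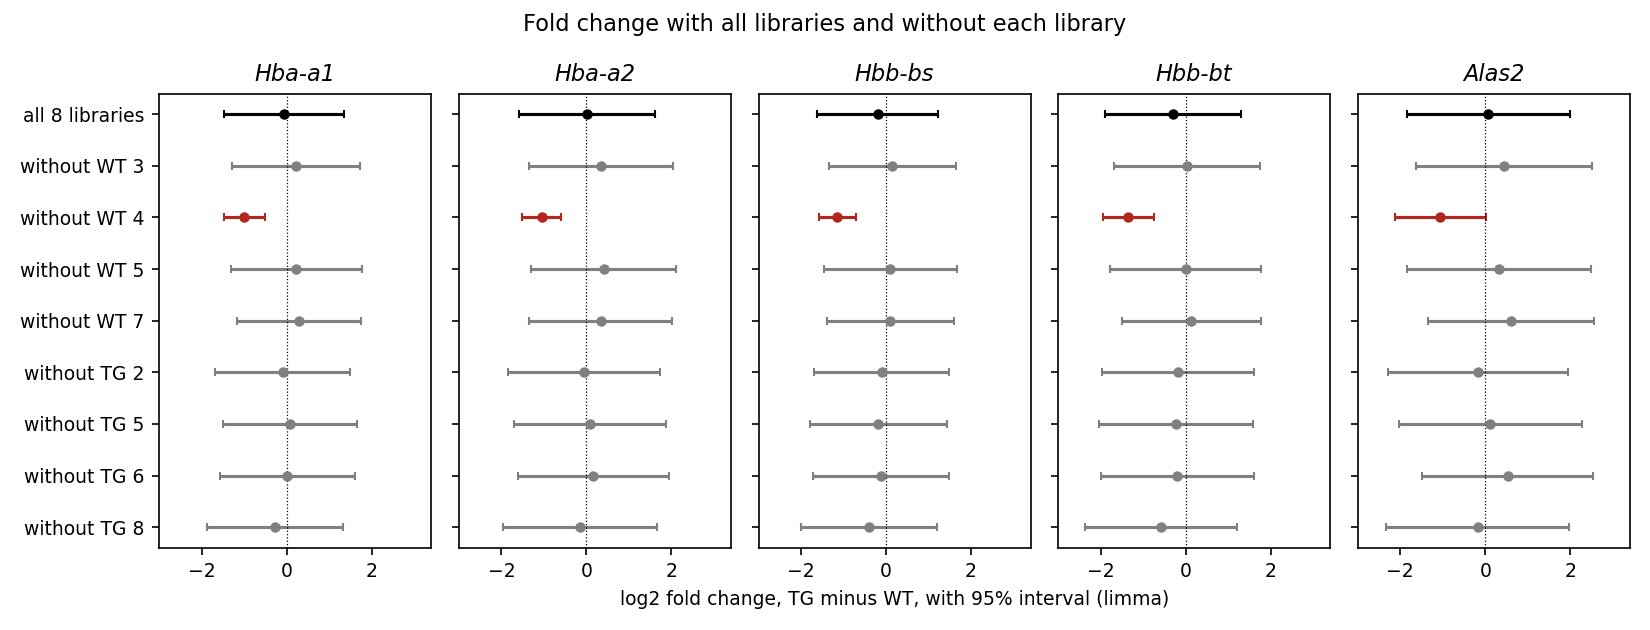
Log2 fold change, TG minus WT, of the 5 tested genes with all 8 libraries (black) and without each library in turn (grey, and red for WT 4), with 95% intervals from limma. The intervals of the globin genes exclude 0 only without WT 4, where Hbb-bs is at -1.15.

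The composition of the globin reads was compared next, since ratios within a library do not depend on how much globin it held. Summed over the 4 genes, globin took 0.0497%, 0.00417%, 0.0504% and 0.0535% of counted reads in WT 3, 4, 5 and 7, and 0.0262%, 0.0249%, 0.0190% and 0.0403% in TG 2, 5, 6 and 8. The share varied 12.8-fold over the libraries, with WT 4 the lowest and TG 8 the highest of TG. Alpha-globin genes made up 34.3% to 37.9% of the summed globin values in WT and 34.2% to 46.0% in TG, where TG 2 was the highest. WT 4, at 35.7%, lay inside the range of the other WT libraries.

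The Hba-a1 share of alpha-globin reads was 67.3% ± 4.59 in WT and 66.2% ± 3.05 in TG, and the Hbb-bs share of beta-globin reads was 88.7% ± 2.02 and 89.4% ± 1.21 (SD, n = 4 each). WT 4 had the highest value of both shares, 73.2% and 90.7%. Alas2 had 5.61 ± 2.05 normalized reads per 1000 of globin in WT and 7.04 ± 3.50 in TG, from 3.00 in TG 6 to 11.5 in TG 2, with WT 4 at 3.51. By two-sided exact permutation tests, the difference between TG and WT did not pass in the alpha share (p = 0.343), the Hba-a1 share (p = 0.714), the Hbb-bs share (p = 0.6) or the Alas2 ratio (p = 0.514). Adjusted over these 4 ratios each p was 0.714, and the smallest p that 4 against 4 allows is 0.029.

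**Figure D3:**
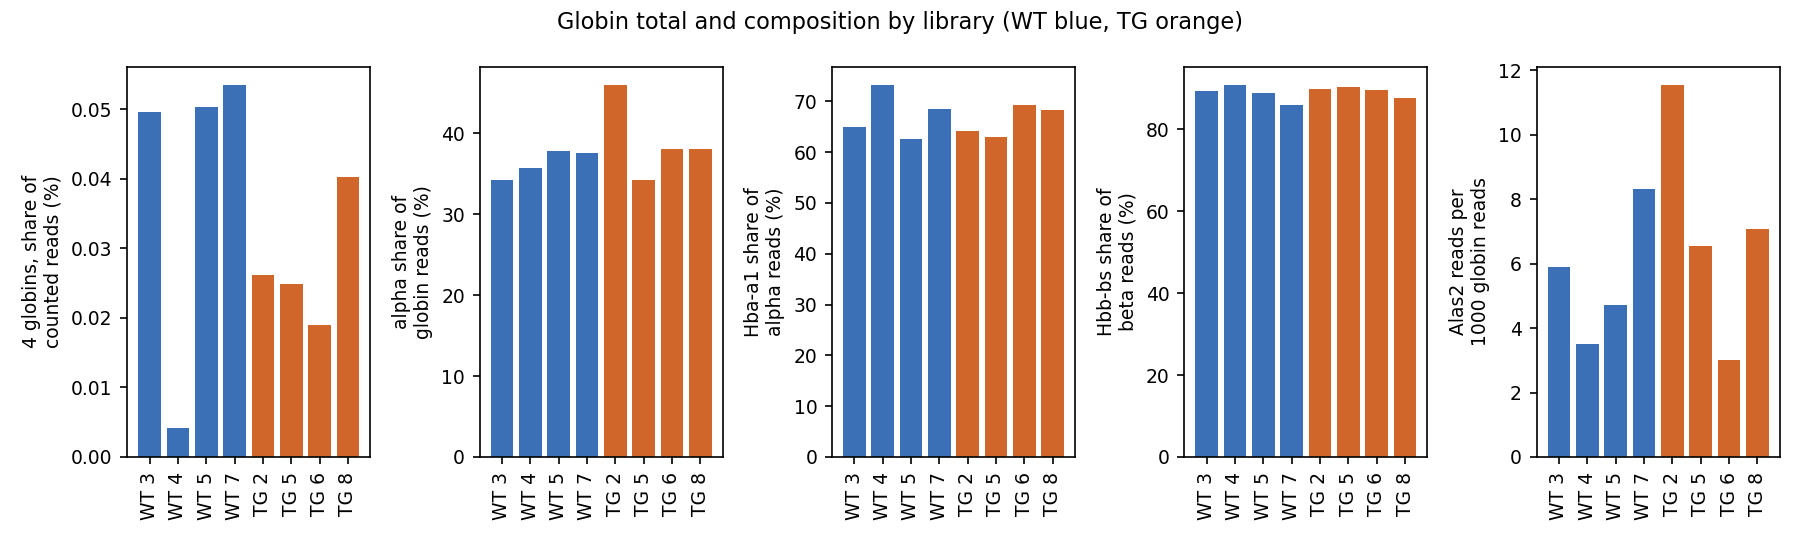
Share of counted reads taken by the 4 globin genes, in percent (left), and 4 ratios within the globin and Alas2 reads of each library, WT in blue and TG in orange. The globin share in WT 4 is 0.00417% against 0.0190% to 0.0535% elsewhere, while its alpha share of 35.7% lies among those of the other WT libraries.

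Across the 7 libraries without WT 4, the globin genes moved together. Pearson's r of the log2 values ran from 0.91 to 0.98 over the 6 pairs of globin genes and Spearman's rho from 0.75 to 0.964 (exact permutation p adjusted over 10 pairs at most 0.018 for r and 0.095 for rho). For the 4 pairs with Alas2, r ran from 0.704 to 0.832 (adjusted exact p at most 0.055). With WT 4 included the ranges were 0.97 to 0.993 and 0.921 to 0.955, values that the 1 distant library raises. Without the 2 libraries farthest from the median of the first gene, r was 0.913 to 0.987 and 0.634 to 0.912 (n = 6).

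The relation was also computed within groups. With the group means subtracted and WT 4 left out, r ran from 0.635 to 0.927 over the globin pairs and from 0.462 to 0.788 over the pairs with Alas2. The adjusted permutation p for r then ran from 0.089 to 0.17 and from 0.093 to 0.29, so no pair passed. Spearman's rho ran from 0.321 to 0.964 and from 0.393 to 0.786. By rho only Hbb-bs with Hbb-bt was under the threshold (adjusted permutation p = 0.028). The permutations moved centred values between the groups, so these p-values are approximate for a relation within groups. No conclusion is drawn from that 1 pair. The copies within the alpha pair and within the beta pair share sequence, so those 2 pairs are not independent measurements.

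**Figure D4:**
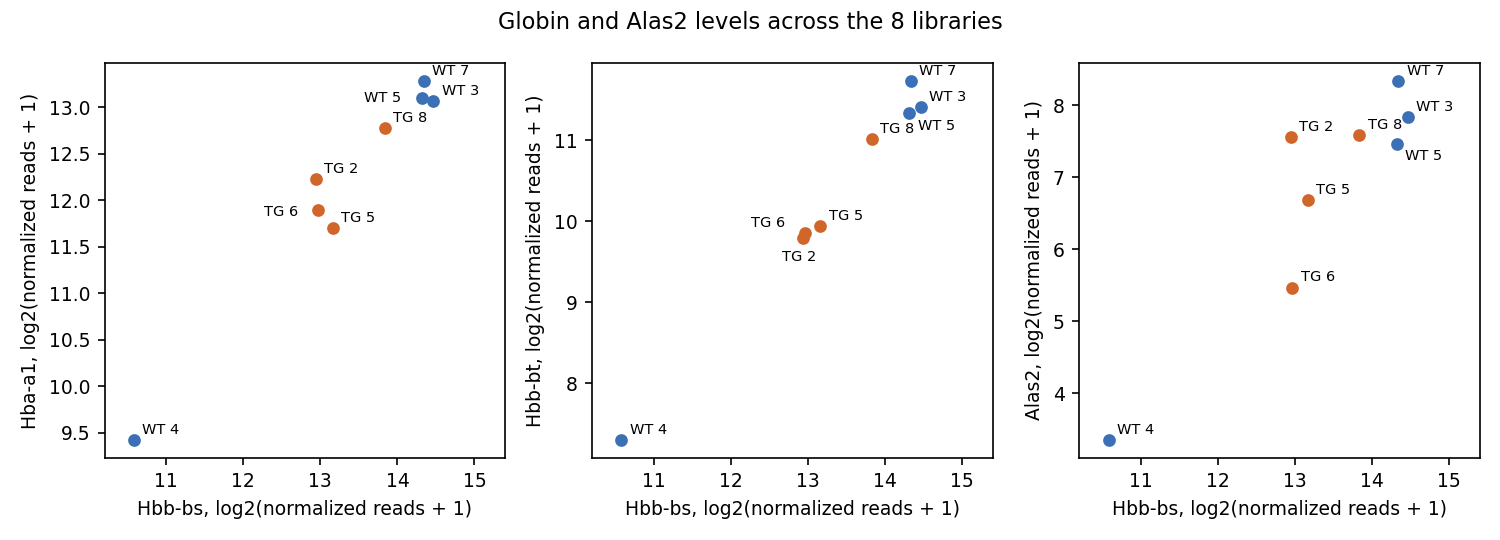
Hba-a1, Hbb-bt and Alas2 against Hbb-bs in the 8 libraries, all as log2(normalized reads + 1), WT in blue and TG in orange. TG 8 lies nearest to the 3 high WT libraries, WT 4 lies alone at the lower left, and Alas2 is more scattered than the globin genes.

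Other genes of red cells and their precursors were examined as lists. None of their tested members was called with or without WT 4. The embryonic and theta globin genes of the same clusters were at or near 0: Hba-x, Hbb-bh2 and Hbq1a had no reads, and Hbb-y, Hbb-bh1 and Hbq1b stayed under 12 normalized reads. Gata1, a transcription factor of red cell precursors, had 0 to 21.5 normalized reads. It was at 16.6 in WT 4 and at 0 in WT 3 and WT 5, so this low gene did not follow the order of the globins. Klf1, also low, had 0 to 20.5 in WT and 14.1 to 50.5 in TG (log2 fold change 1.86 ± 1.02, SE, adjusted p = 0.92, limma). Of the 8 tested erythroid transcription factors, 5 were higher and 3 lower in TG. Rhag, Kel, Epb42, Hemgn and Gfi1b, each known from red cells or their precursors, had no reads in any library.

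The list of red cell membrane and skeleton genes had 11 tested members, 5 higher and 6 lower in TG, with a median log2 fold change of -0.15 (all features: -0.02). Its most abundant member was Epb41, protein 4.1, with means of 43890 ± 394 (WT) and 44399 ± 6571 (TG) normalized reads, and WT 4 was lowest in 1 of the 11 genes. The 14 haem synthesis genes had a median of -0.07, and Alas1, the form of the enzyme used outside red cells, had 1888 ± 254 in WT and 1807 ± 87.6 in TG, above Alas2. The 11 tested genes of red cell enzymes and maturation (median 0.08), led by the carbonic anhydrase Car2, and the 8 tested erythroid transcription factors (median 0.08) had WT 4 as the lowest library in 2 and 0 genes. WT 4 was the lowest library in 1860 of the 19798 tested features.

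Globins of other tissues were not lowest in WT 4. Cygb, cytoglobin, had 9492 normalized reads in WT 4, within the 8247 to 11199 of the WT libraries, and 9421 to 15444 in TG (log2 fold change 0.36 ± 0.16, SE, adjusted p = 0.92, limma). Ngb, neuroglobin, a globin of neurons, had 134 in WT 4, the highest WT value, and 72.7 to 261 in TG. Mb, myoglobin, had 0 to 44.8 over all libraries.

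Genes that clear haemoglobin, break down haem or store and export its iron formed another list, with 9 members tested, 6 higher and 3 lower in TG, and a median log2 fold change of 0.15. Hmox1, which breaks down haem, had 657, 528, 788 and 418 normalized reads in WT and 3984, 4441, 1315 and 495 in TG, so that TG 8 lay inside the WT range (log2 fold change 1.66 ± 0.54, SE, adjusted p = 0.92, limma). TG 8 was also the TG library with the most globin reads. The ferritin genes Fth1 and Ftl1, which encode the iron store of cells, had log2 fold changes of 0.04 ± 0.13 and 0.32 ± 0.21 (SE). WT 4 was the lowest library in 4 of the 9 genes, Hmox1 not among them, and for Cd163 it tied with TG 8 at 0. Hp went the other way, with 109 normalized reads in WT 4 against 0 to 48.6 in the other libraries.

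The list of the erythropoietin response and iron entry had 4 tested members, 2 higher and 2 lower in TG, with a median log2 fold change of 0.02 (-0.01 without WT 4). Epor, the erythropoietin receptor, had a log2 fold change of 1.43 ± 1.09, Kit, the receptor of stem cell factor, 0.49 ± 0.27 and Tfr2, the second transferrin receptor, -0.44 ± 0.41 (SE). Tfrc, the transferrin receptor through which red cell precursors take in iron, had 259, 447, 94.1 and 714 in WT and 277, 128, 74.1 and 127 in TG (log2 fold change -1.13 ± 0.55, adjusted p = 0.92, limma).

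Markers of other blood and vessel cells were read for the same libraries. Of the 6 tested neutrophil markers, 4 were highest in WT 4: S100a8, S100a9, Retnlg and Mmp8, the first pair being calcium-binding proteins that neutrophils hold in large amounts. S100a8 was at 918 and S100a9 at 1024 normalized reads in WT 4, against 15.6 to 268 and 21.5 to 278 in the other libraries. The summed level of the list, in which Lcn2 dominates, ran from 2950 to 21683 in WT and from 2020 to 27641 in TG. WT 4 was at 9893. Elane was at 0 in all libraries. Of the list genes too low to be tested, Ngp, Ltf, Cxcr2 and Mpo were highest in WT 4 (27.6, 16.6, 25.8 and 7.37 normalized reads). Camp was highest in WT 5 (8.45). The platelet markers summed to 181 in WT 4, the highest of the WT libraries (125 to 181; TG 136 to 248), and Gp1ba was at 0 in all libraries. The 10 endothelial markers summed to 5021 in WT 4, within 4079 to 10860 in WT and 4100 to 6934 in TG.

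Lymphocyte markers were low, with sums of 61.7 to 154 in WT and 67.4 to 194 in TG, WT 4 lowest, and Cd3e at 0 throughout. The 12 pigment epithelium markers summed to 13018 in WT 4, 13881 in WT 5, 29180 in WT 7 and 117124 in WT 3, against 25067 to 68968 in TG. The 10 lens markers were high in WT 3 and TG 6 (25958 and 20994) and 64.5 to 5570 elsewhere. TG 6 had the lowest globin sum of TG, and WT 3 lay between WT 5 and WT 7. Without WT 4, where the globin genes lay lower in TG, 11 of the 12 pigment epithelium markers also lay lower, with a median log2 fold change of -0.40 against 0.10 with all libraries. So did 9 of the 10 endothelial markers (median -0.34 against -0.18) and 9 of the 10 rod markers (-0.11 against -0.10), while all 10 lens markers lay higher (0.94 against 0.95). The median of all features was -0.02 in both fits, and no marker was called in either. The part of these other cells in the globin differences was not tested.

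**Figure D5:**
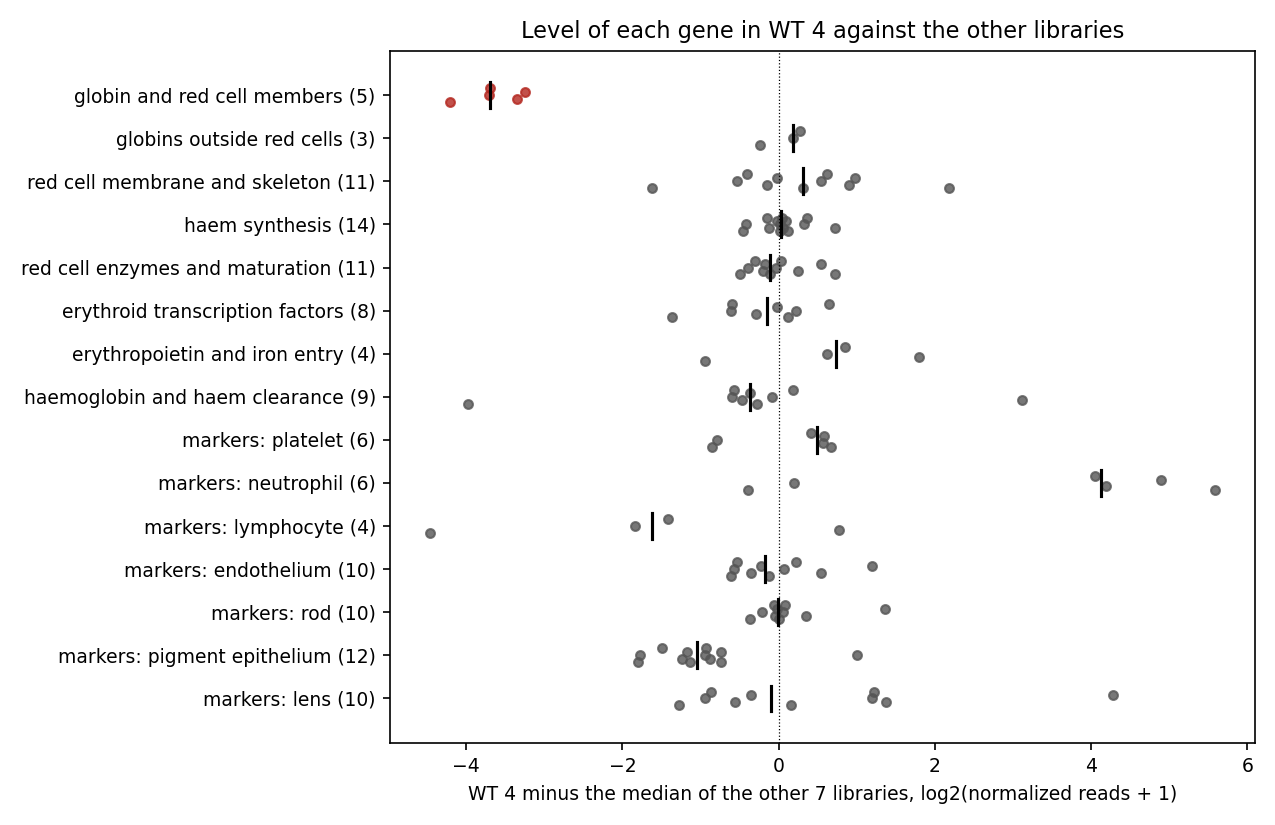
Level in WT 4 minus the median of the other 7 libraries, in log2(normalized reads + 1), for each tested gene of the lists, with the number of genes in brackets and the list median as a black bar. The 5 tested globin and red cell genes have a median of -3.69, and 4 neutrophil markers lie above 4.

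The genes with the pattern most like the mean of the 5 tested members over the 8 libraries were Ypel1 (Pearson's r = 0.966), Kcnj8 (0.938), Maml2 (0.931), Fam69a (0.927), Ptcd3 (0.922), Tyw5 (0.912), Cenpw (0.911), Shcbp1 (0.906), Itgb3 (0.894) and Ginm1 (0.892). They were the 10 highest among 12613 features with a symbol and a mean of at least 50, and r is a description of likeness only. Their distance between WT 4 and the mean of the other WT libraries ran from 1.30-fold for Ptcd3 to 15.3-fold for Itgb3. Ypel1 had 37.7 normalized reads in WT 4 and 67.8 as the mean of the other WT libraries, and Ptcd3 697 and 905. Kcnj8, a potassium channel gene of pericytes, had 129 in WT 4 and 225 to 479 in the others. Itgb3, an integrin of platelets and other cells, had 5.52 in WT 4 and 42.0 to 105 in the others. Without WT 4, r was 0.931 for Ypel1 and 0.843 for Kcnj8, but 0.383 for Itgb3 and 0.458 for Shcbp1.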

How the data were processed

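Polyadenylated RNA of 8 retinas was sequenced from strand-marking libraries, per the labels' protocols. The deposited values are a signal, read counts that the authors normalized with DESeq2, per the file headers. The submitters' processing notes name the build mm10 (GRCm38), the aligner STAR 2.4.0, and DESeq2, Picard, FastQC and SAMtools. No source used here names the counting tool, its use of strand, its annotation or how it treated reads that fit several copies. In each column 100% of values were whole multiples of 1 read (within 0.01), so reads were recovered.

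Values were analysed as log2(value + 1) with limma 3.58.1 (R 4.3.3, trended variance) keeping features whose mean reached 10, and p-values were adjusted over all of them by the Benjamini-Hochberg method, with 0.05 as the threshold. This scale understates the change of low genes. edgeR 4.0.16 and DESeq2 1.42.0 on the recovered reads were alternatives, beside other scalings, pseudocounts, filters, terms for eye or sex, the males alone, array weights and leaving out each library. Fits with WT 4 left out under other tools or terms, and relations and list counts without it, were chosen after seeing the data. So was setting aside 2 list genes, Epo and Gp1bb, whose rows also carry another gene. On simulated counts for TG against WT (19311 features), limma recovered 38% of features changed 2-fold and 77% of those changed 4-fold. It also called 7 unchanged features there, and 0 where nothing was changed. The changed features were drawn from those with a mean of at least 50. The tested members spread more in WT than most features, so these rates do not give the recovery for them.

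The members, lists and tests were chosen with earlier results of these data known. Named genes were the 6 members, the defining or most abundant genes of each list, and the 10 symbols with the highest correlation with the members' mean. Rhag, Kel, Epb42, Hemgn, Gfi1b, Retnlg, Mmp8 and the globins given at or near 0 were also named for their values. So were Klf1, Ngp, Ltf, Cxcr2, Mpo, Camp, Hp, Cd163 and Fam132b. Hbb-b1, Hbb-b2, Ahsp and Tent5c were not analysed here. Erfe was listed under its older symbol Fam132b, which had 0 to 6.14 normalized reads and was too low to be tested. No 2 libraries were near-copies (lowest chi-square per feature 42.5).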

Additional observations from a re-analysis of the deposited data

Results flagged for a closer look

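In the group of 4 WT libraries, WT 4 lay further below the other 3 than Dixon's limit allows for Hba-a1 (686 normalized reads), Hba-a2 (251) and Hbb-bs (1532). In TG, TG 8 lay that far above the other libraries for Hbb-bt (2064 normalized reads against 884 to 981). Chance alone flags about 1 in 20 groups under this limit, and the copies share sequence, so the alpha genes are not independent of each other.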

How the results depend on the processing

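No paired analysis was possible because the groups share only 1 replicate number, 5. Of the 5 genes' log2 fold changes, none passed the limma threshold under any alternative, and their signs changed often. Leaving out each library gave -1.002 to 0.28 for Hba-a1, -1.06 to 0.40 for Hba-a2, -1.15 to 0.15 for Hbb-bs, -1.34 to 0.13 for Hbb-bt and -1.06 to 0.60 for Alas2, the lowest always without WT 4. Males only gave 0.10 for Hba-a1, 0.32 for Hba-a2 and 0.90 for Alas2. Array weights gave 0.41 for Hba-a1, 0.62 for Hba-a2, 0.33 for Hbb-bs, 0.26 for Hbb-bt and 0.81 for Alas2. For Hba-a1, Hbb-bs and Hbb-bt, edgeR gave -0.56, -0.71 and -0.86, DESeq2 -0.57, -0.72 and -0.87, and sex as a term -0.27, -0.38 and -0.56. For Hba-a2 and Alas2, sex as a term gave -0.14 and -0.069, eye as a term -0.10 and -0.065, edgeR -0.61 and -0.47, and DESeq2 -0.62 and -0.49. A pseudocount of 5 gave -0.0044 for Alas2. With WT 4 left out, Hba-a2 and Alas2 were at -1.01 and -0.88 (edgeR), -1.01 and -0.89 (DESeq2), -1.05 and -1.05 (TMM), -1.05 and -1.04 (quantile), -1.05 and -1.04 (sex term) and -1.02 and -1.04 (eye term). DESeq2 without WT 4 gave -1.10 for Hbb-bs and -1.26 for Hbb-bt, both past its threshold, as was Hba-a2. The cause was not tested.

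The SD of log2 values in WT without each library was 0.11 to 2.18 (Hba-a1), 0.11 to 2.48 (Hba-a2), 0.078 to 2.21 (Hbb-bs), 0.21 to 2.47 (Hbb-bt) and 0.44 to 2.74 (Alas2). In TG it was 0.26 to 0.57, 0.34 to 0.50, 0.12 to 0.51, 0.075 to 0.69 and 0.51 to 1.21, lowest without TG 8, or without TG 6 for Alas2.

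Over all features, limma called 1 higher and 1 lower in TG. Without each library it called 0 to 2 higher and 1 to 2 lower. Higher calls were 0 with a pseudocount of 0.5, no filter, a minimum mean of 50 or sex as a term, and 0 without WT 4 under edgeR, TMM scaling or sex as a term. Males only gave 3 lower, DESeq2 9 higher and 7 lower, and DESeq2 without WT 4 6 higher and 6 lower. Upper-quartile scaling moved the median log2 fold change of all features from -0.02 to 0.03. Summing all rows of a symbol changes nothing, since each gene has 1 row. Depth limits Slc4a1, with at most 20 reads in any library.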
